A study of Mus musculus with 16 samples.

Results

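Integrins and the proteins of focal adhesions were examined in 16 primary explants of mouse epicardium, the outer cell layer of the heart. The set was a list of 33 genes chosen by name: 13 integrin subunits, and 20 adaptors, kinases and actin crosslinkers that gather on the inner side of integrins. A row of the count table was present for 32 of the 33, out of 15805 genes in all, and all 32 passed the filter on low counts. Ilk, the integrin-linked kinase, was not analysed here. On the annotation, 76.7% of its exonic bases also belong to Taf10, a gene on the opposite strand.

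All 16 explants were primary cultures from C57BL6 mice on a 1% collagen gel, and the labels call their cells epicardial. In 8 of them blebbistatin was added, a small molecule that blocks the motor activity of myosin II, and 8 controls received none. The labels give the dose as 20 with its unit spelled differently in different places, and how long it was left on is not stated there. The series concerns nonmuscle myosin IIB and the integrity of the epicardium, and the question put to these genes was which of them differ in RNA level when myosin II is inhibited.

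Integrins are transmembrane receptors made of an α and a β chain. The pair of chains decides which matrix protein is bound: collagen, laminin, or proteins such as fibronectin that carry an RGD tripeptide. Talin and kindlin bind the β tail and switch the receptor on, and vinculin, the ILK-PINCH-parvin complex, α-actinins and filamins tie it to actin. Myosin II pulls on that actin, and many focal adhesion proteins, zyxin among them, are recruited to adhesions by the tension. In the epicardium, integrin α4 and its ligand VCAM-1 are known for holding the epicardium to the heart muscle.

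The libraries held 20176386 to 89620195 counts with blebbistatin and 27065611 to 60321622 in controls. Epicardial identity was checked with 16 markers, all of which had a row. Their summed level was 2184 to 5603 CPM (counts scaled to a fixed library total) with blebbistatin and 3147 to 7038 in controls, a difference that did not pass (2-sided exact permutation test, adjusted p = 0.131 over 8 measures). Singly, 14 of the 16 had negative fold changes, beside 45.9% of all tested genes, and 0 were called. Means were lower for Msln (268 and 464 CPM), Tbx18 (31.5 and 49.8 CPM) and, at low levels, Krt8, Krt18 and Krt19. Higher means were seen for Tcf21 (67.8 and 61.6 CPM) and, at a low level, Gata5. Of the 16 macrophage and leukocyte markers all 16 had a row, with summed levels of 330 to 4442 and 354 to 4998 CPM in the treated and control libraries (exact permutation test, adjusted p = 0.945). Lyz2, the largest part of that sum, had a lower mean with blebbistatin (714 and 988 CPM), as did Itgam, Itgb2 and C1qa. The other markers had higher means, among them Cd68 (171 and 105 CPM) and Laptm5 (104 and 69.2 CPM). Of the 15 that were tested, 3 had negative fold changes and 0 were called. Cardiomyocyte markers (7 of 12 with a row, without Myh7, Tnni3, Myl2, Myl3 and Nppa) summed to 653 to 1218 and 412 to 1024 CPM in the same order (exact permutation test, adjusted p = 0.0354). Tnnt2 made up most of that sum (mean 859 CPM with blebbistatin and 549 in controls). Ttn was also higher with blebbistatin (48.9 and 15.9 CPM), as were Myh6, Actn2 and Ryr2 at low levels. Myl7 was lower (77.3 and 92.5 CPM), and so was Actc1 at a low level. Mural-cell markers (6 of 8 with a row) summed to 193 to 422 and 269 to 549 CPM (exact permutation test, adjusted p = 0.0361). Among them Des differed most (mean 137 and 243 CPM), followed by Cspg4 (51.5 and 79.8 CPM), and Myh11 and Notch3 were lower at low levels. Pdgfrb (72.5 and 67.9 CPM) and Abcc9 (1.16 and 0.718 CPM) were higher with blebbistatin. Lists for endothelium (8 of 12 with a row), platelets (2 of 6) and Schwann cells (1 of 5) had adjusted p of 0.174 to 0.945 by the same exact test. The share of counts from mitochondrial genes was 16.8% to 25.5% with blebbistatin and 13.8% to 18.9% in controls (exact permutation test, adjusted p = 0.0261). The part of cell types and of the mitochondrial share in the member values was not tested beyond the fits that carry macrophage markers or the mitochondrial share as a term. In RNA from whole explants, fewer cells of a type and less RNA per cell cannot be told apart. The labels do not say whether the 8 explants of a group came from separate animals, so p-values measure the spread between these samples.

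Actn1 was the single member that changed past the threshold, and it fell 1.84-fold. Across the set, 1 of 32 tested members was lower and 0 were higher by edgeR's quasi-likelihood test at a Benjamini-Hochberg adjusted p under 0.05 over all 15675 tested genes. Member levels are CPM scaled by TMM, a correction of each library's total for a few dominant genes, and SE is the standard error of the log2 fold change. Of all tested genes, 0.606% passed in either direction, 0.351% lower and 0.255% higher. Without the adjustment, 13 members were lower and 3 higher at p under 0.05, where 5.98% of all tested genes were lower and 6.21% higher. DESeq2 called 4 members lower (Itga5, Itgb1, Zyx and Actn1) and 2 higher (Itga8 and Nedd9), against 1.76% and 1.47% of the genes it tested, and limma voom called Actn1 alone, against 0.504% of genes lower and 0.217% higher. The log2 fold change, blebbistatin minus control, was negative for 25 of 32 members and positive for 7, with a median of −0.25 beside 0.04 over all tested genes, of which 45.9% were negative. It ran from −1.32 for Itga2 to 1.50 for Itga8. No member separated the groups completely: for all 32 the treated and control ranges overlapped, while 0.242% of all tested genes had ranges that did not (0.159% lower and 0.0829% higher).

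**Figure D1:**
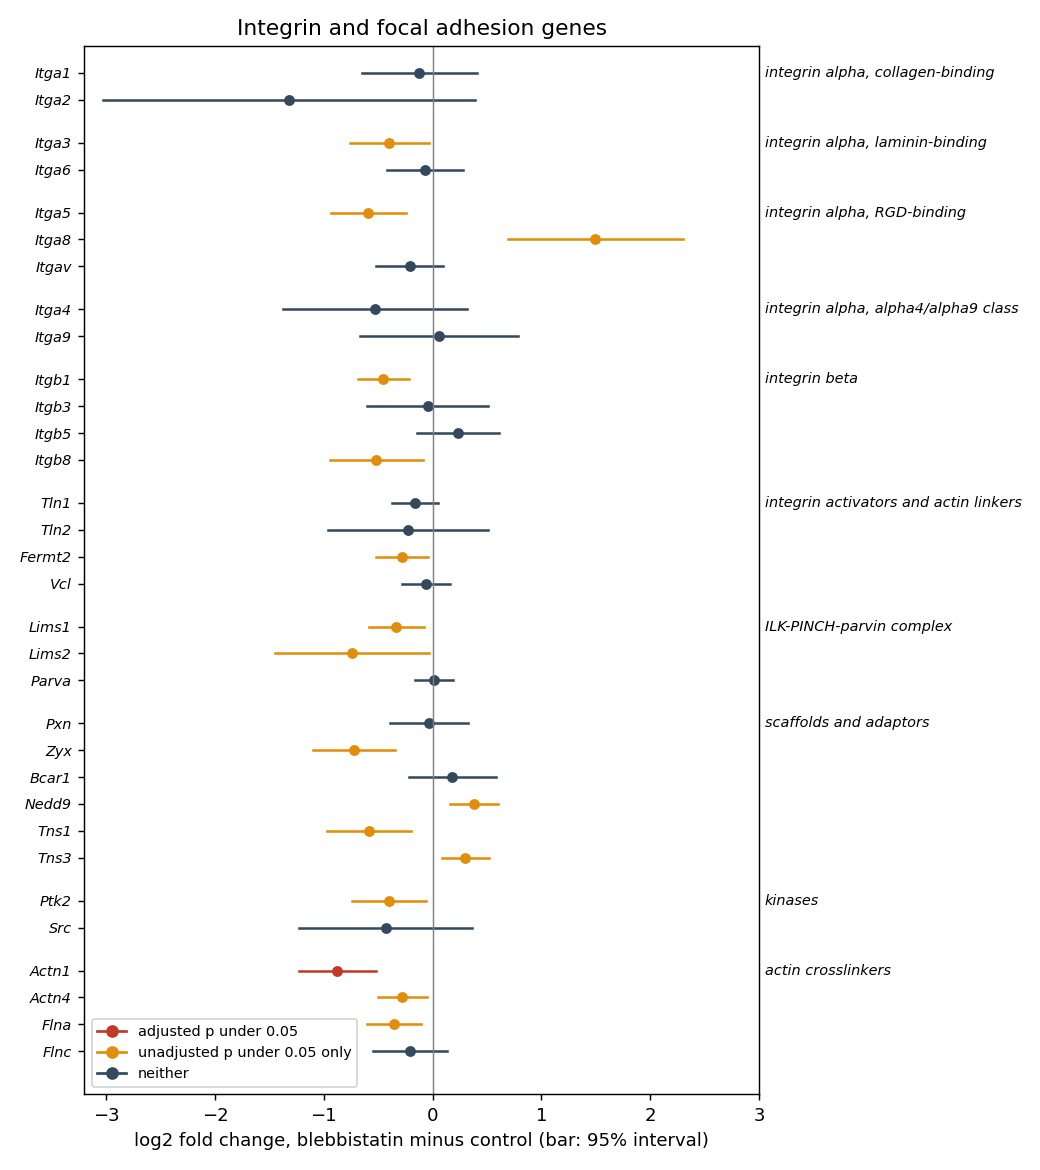
Log2 fold change of RNA level (blebbistatin minus control, 8 explants each) for the 32 tested members, grouped by role, with points for edgeR estimates, bars for 95% intervals and colours for the threshold passed. Actn1, at −0.88, is the member past the adjusted threshold, and 25 of the 32 points lie below 0.

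The actin crosslinkers, which bundle or net actin filaments at adhesions, held that gene, and all 4 had negative fold changes, with 3 at an unadjusted p under 0.05 and a class median of −0.32. Actn1, for α-actinin-1 of stress fibres and adhesions (ENSMUSG00000015143, chr12:80167547-80260371 on GRCm38), ran from 82.4 through a median of 125 to 205 CPM with blebbistatin and from 170 through 248 to 294 CPM in controls. All 8 treated libraries lay below the control median and 6 of them below the lowest control, control 6. On the annotation, 6.56% of its exonic bases are shared with Gm47766. The means were 134 ± 41.0 and 246 ± 42.3 CPM (SD, n = 8 each), and the log2 fold change was −0.88 (SE 0.17, edgeR adjusted p = 0.0198). Its direction held in every alternative run and the call in 23 of 26. The call was lost with Y-linked RNA as a covariate (−0.84, edgeR adjusted p = 0.0959), with the mitochondrial share as a covariate (−0.86, adjusted p = 0.387) and without blebbistatin 1 and 8 together (−0.83, adjusted p = 0.0638). The summed level of 4 Y-linked genes was above 100 CPM in 5 treated and 2 control libraries. Among those libraries Actn1 averaged 122 and 262 CPM, and in the other 3 treated and 6 controls it averaged 153 and 241 CPM.

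Flna, for filamin A, which links actin to integrin tails, was the most abundant crosslinker per kb of exon, at a level of 655 to 1020 CPM (median 785) with blebbistatin and 863 to 1269 (median 1094) in controls. Its treated libraries were all below the control median, and its log2 fold change of −0.36 (SE 0.12) did not pass (edgeR adjusted p = 0.191). For Actn4, the second nonmuscle α-actinin, the levels were 194 to 292 CPM (median 235) and 238 to 347 CPM (median 305), again with all 8 treated libraries below the control median and a log2 fold change of −0.28 (SE 0.11, edgeR adjusted p = 0.270). Flnc, the filamin best known from striated muscle, stood at 106 ± 29.9 and 122 ± 23.6 CPM (SD, n = 8 each), or a log2 fold change of −0.21 (95% interval −0.55 to 0.13).

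The 9 integrin α chains gave no call by edgeR or voom, with 2 lower and 1 higher at an unadjusted p under 0.05. By DESeq2, Itga5 was called lower and Itga8 higher. Among collagen receptors, Itga1, for α1, stood at 15.1 ± 6.58 and 16.5 ± 5.34 CPM with and without blebbistatin (SD, n = 8 each), or a log2 fold change of −0.12 (95% interval −0.65 to 0.40). Itga2, for α2, was barely detected, at 1 to 43 counts in treated libraries and 0 to 110 in controls. Its log2 fold change of −1.32 had an interval from −3.03 to 0.39, and it ran from −2.0 to −0.99 as single libraries were left out. Per kb of exon, these collagen-receptor chains were the lowest of the 13 integrin subunits in controls. That length merges the exons of all annotated transcripts, 18599 bases for Itga1 and 7368 for Itga8. In CPM not divided by length, the control mean of Itga1 (16.5) stood above those of Itga9 (14.0) and Itga8 (12.5).

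Among laminin receptors, Itga3, for α3 (chr11:95044474-95076801), ran from 118 through 208 to 246 CPM with blebbistatin and from 138 through 250 to 361 CPM in controls. Every treated library was below the control median, while control 6, at 138 CPM, lay within the treated range. The log2 fold change was −0.40 (SE 0.17, edgeR adjusted p = 0.351). Itga6, for α6, had an interval of −0.42 to 0.28 around a log2 fold change of −0.07, with means of 120 ± 39.9 and 127 ± 18.3 CPM (SD, n = 8 each).

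Of the 3 α chains of RGD receptors, 1 was lower and 1 higher at an unadjusted p under 0.05. Itga5, whose α5 chain makes the classical fibronectin receptor with β1 (ENSMUSG00000000555, chr15:103344286-103366763), ran from 42.2 through 79.8 to 122 CPM with blebbistatin and from 81.3 through 117 to 140 CPM in controls. Treated libraries were below the control median in 7 of 8, blebbistatin 1 being the exception. The log2 fold change was −0.59 (SE 0.16), which missed the threshold by edgeR (adjusted p = 0.106) and passed by DESeq2 (adjusted p = 0.0297) and by edgeR without blebbistatin 1 (adjusted p = 0.0353). Itga8, whose α8 chain binds nephronectin and fibronectin (ENSMUSG00000026768, chr2:12106632-12301922), ran the other way, from 11.3 through 22.8 to 108 CPM against 8.35 through 11.9 to 15.7 CPM. Treated libraries exceeded the control median in 7 of 8, and blebbistatin 6 and 3 stood far above the others, at 108 and 58.1 CPM. The log2 fold change was 1.50 (SE 0.39, edgeR adjusted p = 0.0768). DESeq2 passed it (adjusted p = 0.00387) and voom did not (adjusted p = 0.262), and edgeR passed it without blebbistatin 2 (adjusted p = 0.0468) or without blebbistatin 5 (adjusted p = 0.0475). Without blebbistatin 6 the log2 fold change of Itga8 was 0.99 (edgeR adjusted p = 0.177), and without blebbistatin 3 it was 1.35 (adjusted p = 0.149). Itgav, the αv chain shared by several β partners, had a log2 fold change of −0.21 (95% interval −0.52 to 0.10).

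The α4 and α9 chains bind VCAM-1, fibronectin or tenascin rather than laminin or collagen. Itga4 varied widely between explants, from 10.4 to 102 CPM with blebbistatin and 25.7 to 121 CPM in controls, and its log2 fold change of −0.53 had an interval of −1.37 to 0.32. It was −0.93 without blebbistatin 5 and −0.26 without control 4. Itga9 stood at 14.6 ± 9.40 and 14.0 ± 6.20 CPM (SD, n = 8 each), or a log2 fold change of 0.06 whose sign depended on the test. For both genes the spread between explants left differences of over 1.5-fold within the interval.

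Of the 4 β chains none was called by edgeR or voom, DESeq2 called Itgb1, and 2 were lower at an unadjusted p under 0.05. Itgb1, for β1, the partner of most of these α chains (ENSMUSG00000025809, chr8:128685654-128733200), ran from 517 through 676 to 791 CPM with blebbistatin and from 703 through 896 to 1166 CPM in controls. The 8 treated libraries all lay below the control median, and 6 were below the lowest control. The means were 667 ± 90.6 and 912 ± 137 CPM (SD, n = 8 each), or a log2 fold change of −0.45 (SE 0.11). By edgeR the adjusted p was 0.0673 and by voom 0.0546, while DESeq2 passed it (0.00815), as did edgeR without control 6 (0.0300) or without blebbistatin 5 (0.0499). Itgb8, whose product pairs with αv and binds latent TGF-β, ran from 10.6 through 24.8 to 37.6 CPM and from 26.4 through 33.3 to 50.5 CPM with and without the drug. There 6 treated libraries were below the lowest control, at a log2 fold change of −0.52 (SE 0.21, edgeR adjusted p = 0.295). The other αv partners, Itgb3 and Itgb5, had log2 fold changes of −0.05 (95% interval −0.60 to 0.51) and 0.23 (95% interval −0.14 to 0.61).

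**Figure D2:**
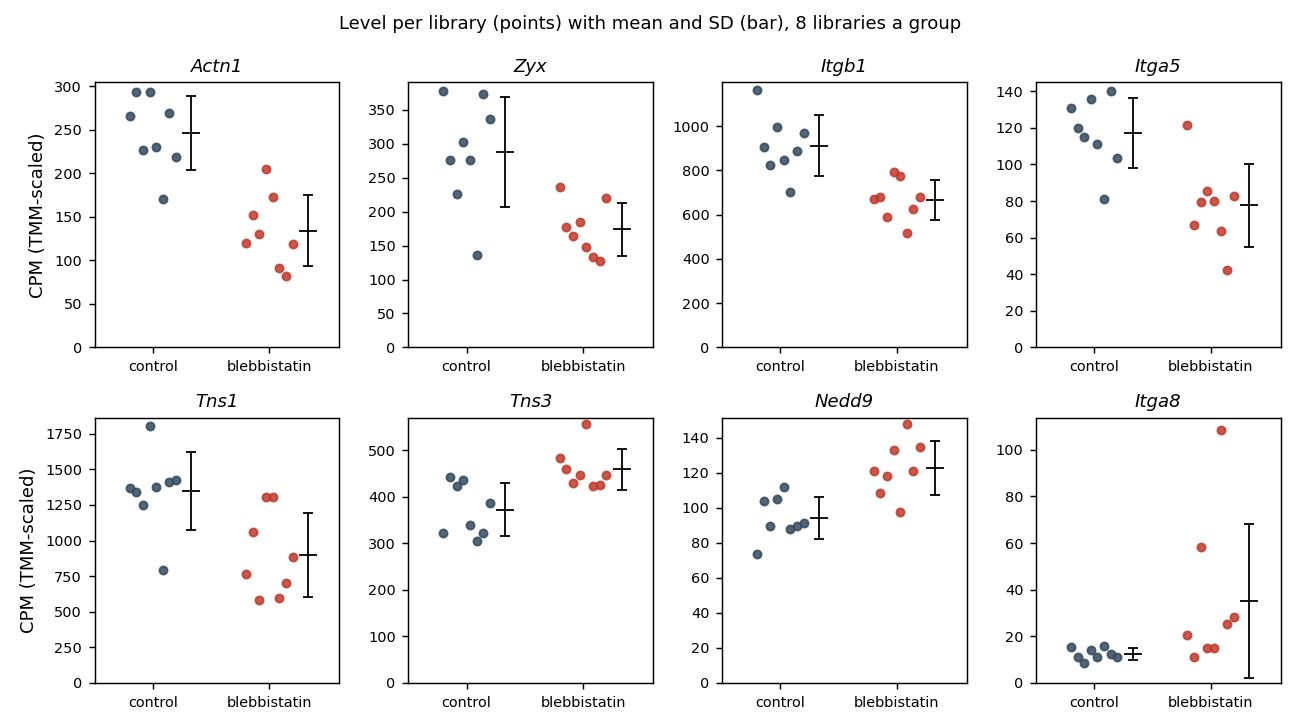
RNA level (TMM-scaled CPM, linear axes from 0) of 8 members in each explant, with points for the 8 libraries of a group and bars for their mean and SD. The Actn1 points with blebbistatin lie between 82.4 and 205 CPM against 170 to 294 in controls, and in each of the 8 panels the ranges of the groups overlap.

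Levels were compared between genes per kilobase of exon, as CPM per kb in the 8 controls. Itgb1 was highest at 224 ± 33.6 (SD), above every other integrin in 8 of 8 libraries, and Itga3 (45.0 ± 11.4) and Itgav (38.8 ± 6.27) followed. The order of Itga3 and Itgav held in 6 of 8 controls, so they did not separate, whereas Itgav exceeded Itga5 (23.7 CPM per kb) in 8 of 8. Itgb5 (19.0) and Itga6 (14.0) came next, then Itgb3 (4.40), Itga4 (3.87), Itgb8 (3.06), Itga9 (1.82), Itga8 (1.69), Itga1 (0.885) and Itga2 (0.153). Within that lower group, Itga4 over Itgb8 held in 4 of 8 controls and Itga9 over Itga8 in 3 of 8, so neither order was settled. Of the summed per-kb level of the 9 α chains, Itga3 held 34.2% ± 5.50 in controls and 31.8% ± 6.16 with blebbistatin (SD, n = 8 each). Itgav held 29.9% ± 3.32 and 31.1% ± 4.93, and Itga5 18.3% ± 1.84 and 14.7% ± 3.54. Itga8 held 1.34% ± 0.423 and 4.83% ± 5.13, the second with an SD above its mean. The α chains of laminin and RGD receptors made up most of the α chain RNA in both groups, and collagen-receptor α chains under 1% each.

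**Figure D3:**
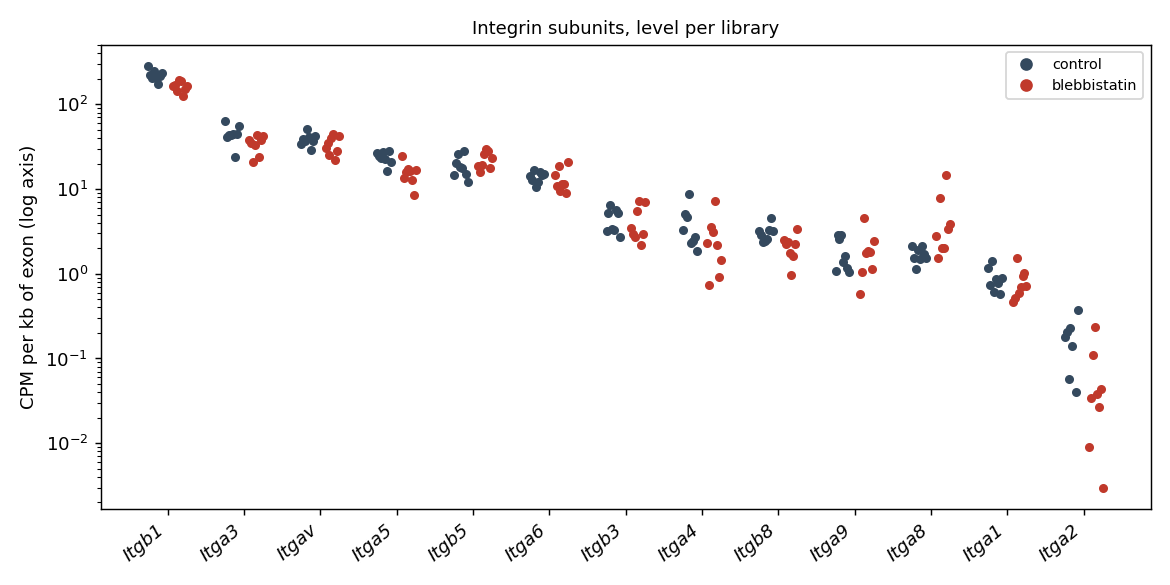
RNA level per kb of exon (CPM per kb, log axis) of the 13 integrin subunits in each explant, with blebbistatin and in controls, in the order of the control mean; Itga2 in control 6, at 0 counts, cannot be drawn on the log axis. Itgb1, with a control mean of 224 CPM per kb, stands above all others, and Itga2, at 0.153, is lowest.

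Of the 4 proteins that activate integrins or link them to actin, none was called by edgeR, DESeq2 or voom, and 1 was lower at an unadjusted p under 0.05. Tln1, for talin-1, which binds the β tail, had a log2 fold change of −0.16 (95% interval −0.38 to 0.05), and Vcl, for vinculin, which binds talin under load, −0.06 (95% interval −0.28 to 0.16). Both intervals stayed within 0.5 of 0, as did those of Itga6, Parva and Pxn. For Vcl, 25.5% of the exonic bases are shared with Ap3m1 on the annotation, and the labels do not say whether counting used strand. Tln2, the second talin, lay near 8 CPM with an interval too wide to place it, at a log2 fold change of −0.23 (SE 0.35). Fermt2, for kindlin-2, the coactivator of talin, ran from 116 through 141 to 167 CPM with blebbistatin and from 128 through 166 to 200 CPM in controls. With 7 of 8 treated libraries below the control median, its log2 fold change was −0.28 (SE 0.11, edgeR adjusted p = 0.307).

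The ILK-PINCH-parvin complex couples β tails to actin, and 3 of its 4 listed genes were measured, 2 of them lower at an unadjusted p under 0.05. Lims1, for PINCH1, ran from 168 through 195 to 246 CPM with blebbistatin and from 170 through 277 to 287 CPM in controls. Again each treated library was below the control median, and control 6, at 170 CPM, stood apart from the other controls (log2 fold change −0.33, SE 0.12, edgeR adjusted p = 0.237). Lims2, for PINCH2, was far lower, at 1.77 to 13.7 CPM (median 7.31) and 7.14 to 24.1 CPM (median 12.5), with a log2 fold change of −0.74 (SE 0.34, edgeR adjusted p = 0.385). Parva, for α-parvin, was the steadiest member in controls, with a coefficient of variation of 6.76%, and stood at 276 ± 24.4 and 274 ± 18.5 CPM (SD, n = 8 each). Its log2 fold change of 0.01 had an interval of −0.16 to 0.19.

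The 6 scaffolds and adaptors split evenly, 3 with negative and 3 with positive fold changes, with 2 on each side at an unadjusted p under 0.05 and a class median of 0.07. Zyx, for zyxin, a LIM protein that gathers at adhesions and stress fibres under tension (ENSMUSG00000029860, chr6:42349630-42360213), ran from 128 through 171 to 237 CPM with blebbistatin and from 135 through 289 to 378 CPM in controls. Each of the 8 treated libraries was below the control median, yet only 2 were below the lowest control, since control 6 stood at 135 CPM. The log2 fold change was −0.73 (SE 0.18, edgeR adjusted p = 0.0651), and it passed by DESeq2 (adjusted p = 0.00781) and by edgeR without control 6 (adjusted p = 0.00747).

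Tns1, for tensin-1, which binds β tails and actin at mature fibrillar adhesions (ENSMUSG00000055322, chr1:73910231-74124449), ran from 581 through 824 to 1307 CPM with blebbistatin and from 796 through 1371 to 1802 CPM in controls. All 8 treated libraries were below the control median and 4 below the lowest control, control 6 (log2 fold change −0.58, SE 0.19, edgeR adjusted p = 0.168). With macrophage markers as a covariate, Tns1 passed at −0.60 (edgeR adjusted p = 0.0496). In all, Tns1 passed in 2 of 26 alternatives. Tns3, for its relative tensin-3 (ENSMUSG00000020422, chr11:8431652-8664535), lay the other way, from 423 through 447 to 557 CPM against 305 through 363 to 443 CPM. All 8 treated libraries exceeded the control median and 5 exceeded every control (log2 fold change 0.30, SE 0.10, edgeR adjusted p = 0.213).

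Nedd9, a docking protein of the p130Cas family (ENSMUSG00000021365, chr13:41309581-41487362), ran from 97.8 through 121 to 148 CPM with blebbistatin and from 73.7 through 90.4 to 112 CPM in controls. Each treated library exceeded the control median, and 6 exceeded every control. The log2 fold change was 0.38 (SE 0.11, edgeR adjusted p = 0.104, DESeq2 adjusted p = 0.0395). Bcar1, for p130Cas itself, had a log2 fold change of 0.18 (95% interval −0.22 to 0.58), with blebbistatin 1 at 148 CPM above all other libraries. Pxn, for paxillin, had a log2 fold change of −0.03 (95% interval −0.39 to 0.33).

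Of the kinases, Ptk2, for focal adhesion kinase, ran from 29.1 through 38.8 to 51.7 CPM with blebbistatin and from 39.0 through 47.1 to 72.7 CPM in controls. Treated libraries were below the control median in 6 of 8 and below the lowest control in 5 of 8 (log2 fold change −0.40, SE 0.16, edgeR adjusted p = 0.310). Src, which focal adhesion kinase binds and activates, had a median of 12.7 CPM with blebbistatin, between 3.76 and 48.4, and of 22.7 CPM in controls, with a log2 fold change of −0.43 (95% interval −1.23 to 0.36). Without blebbistatin 1, the library at 48.4 CPM, the log2 fold change of Src was −0.93 (edgeR adjusted p = 0.153).

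Integrin subunits and the other members were set side by side by class. Of the 13 integrin subunits 0 were called by edgeR, and 4 were lower and 1 higher at an unadjusted p under 0.05, and 10 had negative fold changes with a median of −0.21. Of the 19 other tested members 1 was called lower, 9 were lower and 2 higher unadjusted, and 15 were negative with a median of −0.28. Of all tested genes 0.606% were called, 5.98% were lower and 6.21% higher unadjusted, and 45.9% were negative. Both class medians lay below the 0.04 of all tested genes, and the difference between the classes was not tested. All 8 treated libraries lay below the control median for 8 members (Itga3, Itgb1, Lims1, Zyx, Tns1, Actn1, Actn4 and Flna), a pattern that 4.11% of all tested genes had, and above it for 2 (Nedd9 and Tns3), where the share of all tested genes was 3.03%. Control 6 was the lowest control for 15 of the 32 members, and it also had the highest macrophage marker sum, 4998 CPM, and the lowest epicardial marker sum among controls, 3147 CPM.

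Related members were then compared within each library, which cancels the library's scaling. For 11 pairs chosen by family, the difference in log2 CPM between the paired genes was compared by exact permutation (2-sided, over all 12870 arrangements of the 16 libraries) with adjustment over the pairs, and 2 pairs shifted. Tns1 exceeded Tns3 by 1.84 ± 0.28 in controls, between 1.38 and 2.13, and by 0.91 ± 0.40 with blebbistatin, between 0.44 and 1.55 (SD, n = 8 each). In 8 of 8 treated libraries it was below the control median, a change of −0.93 (exact permutation test, p = 0.000311, adjusted p = 0.00342). For Actn1 against Actn4, in CPM not divided by length, the difference was −0.28 ± 0.19 in controls and −0.92 ± 0.42 with blebbistatin (SD, n = 8 each). In 7 of 8 treated libraries it was below the control median, a change of −0.64 (exact permutation test, p = 0.0028, adjusted p = 0.0154). Both shifts kept their direction within the libraries above 100 CPM of Y-linked RNA (5 treated, 2 controls) and below it (3 treated, 6 controls). The Tns1 to Tns3 difference averaged 0.76 with and 2.03 without blebbistatin in the first, and 1.17 and 1.77 in the second. For Actn1 against Actn4 the averages were −1.05 and −0.26 in the first, and −0.70 and −0.28 in the second. In the second the Actn1 to Actn4 ranges overlapped, at −1.23 to −0.18 with blebbistatin and −0.49 to −0.01 without. These groups are small, and the part of Y-linked RNA in the shifts was not tested.

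The other 9 pairs did not pass. Itga5 against Itgav, the fibronectin receptor chain against the more widely shared αv chain, shifted by −0.39 (exact permutation test, adjusted p = 0.201), and by −0.50 without blebbistatin 1 (exact permutation test, adjusted p = 0.0353). Of 17 alternatives, only that 1 passed for this pair. The shift was −0.13 for Flna against Flnc, −0.23 for Bcar1 against Nedd9, −0.27 for Itga3 against Itga6 and −0.37 for Itgb3 against Itgb5. For Lims1 against Lims2 it was 0.53, for Itga4 against Itga9 −0.64, for Tln1 against Tln2 0.20 and for Itga1 against Itga2 1.03. Over the 9 pairs the adjusted p ran from 0.201 to 0.716 (exact permutation test).

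**Figure D4:**
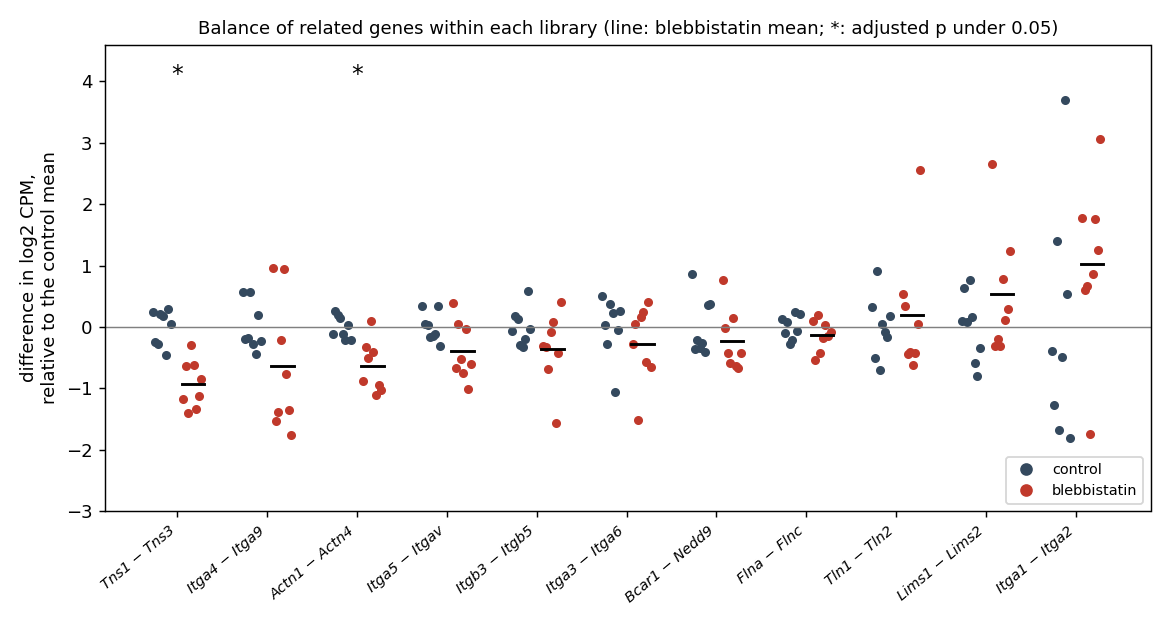
Difference in log2 CPM between related members within each explant for the 11 pairs, with the control mean of each pair set to 0, points for the 8 libraries of a group, black lines for the blebbistatin mean and asterisks at the 2 pairs past the adjusted threshold. The blebbistatin mean lies at −0.93 for Tns1 against Tns3 and at −0.64 for Actn1 against Actn4.

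Promoter sequence was read for the members these results turn on: Actn1, which fell, Tns1 and Tns3, whose balance shifted, Itgb1, the most abundant integrin chain, and Vcl, whose RNA did not pass and whose window held 2 of the motifs sought. The 250 bases before the RefSeq start (GRCm38.p6) are printed 5′ to 3′ in the gene's direction, with capitals for matches to 3 motifs: the CArG box bound by SRF, GGAATG of TEAD factors, and TGANTCA of AP-1, each sought on both strands.
Actn1, chr12:80260364-80260613, minus strand: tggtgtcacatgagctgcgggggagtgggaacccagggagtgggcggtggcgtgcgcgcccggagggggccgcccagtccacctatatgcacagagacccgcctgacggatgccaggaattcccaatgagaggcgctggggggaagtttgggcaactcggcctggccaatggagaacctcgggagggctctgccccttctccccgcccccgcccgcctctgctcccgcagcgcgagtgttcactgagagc
Tns1, chr1:74124549-74124798, minus strand: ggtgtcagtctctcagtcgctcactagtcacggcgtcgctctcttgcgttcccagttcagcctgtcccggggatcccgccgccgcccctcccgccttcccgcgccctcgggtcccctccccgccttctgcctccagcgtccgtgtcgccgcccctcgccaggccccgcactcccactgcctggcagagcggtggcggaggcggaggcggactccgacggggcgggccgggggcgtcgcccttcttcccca
Tns3, chr11:8664536-8664785, minus strand: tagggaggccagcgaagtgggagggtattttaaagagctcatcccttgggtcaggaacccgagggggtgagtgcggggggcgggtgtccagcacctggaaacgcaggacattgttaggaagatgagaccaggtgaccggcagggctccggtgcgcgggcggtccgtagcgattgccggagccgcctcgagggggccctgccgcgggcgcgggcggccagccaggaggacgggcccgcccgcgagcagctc
Itgb1, chr8:128685404-128685653, plus strand: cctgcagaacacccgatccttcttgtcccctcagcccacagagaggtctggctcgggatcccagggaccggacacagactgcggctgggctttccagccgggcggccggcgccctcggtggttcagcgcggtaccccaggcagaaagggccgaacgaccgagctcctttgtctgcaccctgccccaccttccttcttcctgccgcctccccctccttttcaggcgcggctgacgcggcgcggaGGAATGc
Vcl, chr14:20929148-20929397, plus strand: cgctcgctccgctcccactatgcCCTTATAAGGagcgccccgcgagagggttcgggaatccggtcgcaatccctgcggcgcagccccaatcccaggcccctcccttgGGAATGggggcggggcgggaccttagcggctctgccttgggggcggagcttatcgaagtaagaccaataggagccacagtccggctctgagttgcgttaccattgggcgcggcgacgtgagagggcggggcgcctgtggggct
No match to the 3 motifs stood in the windows of Actn1, Tns1 or Tns3, which says only that these letters are not in them. Itgb1 had GGAATG starting 7 bases before the start, and Vcl had a CArG box 227 and GGAATG 143 bases before it. RefSeq promoters were found for 26 of the 33 members, 32 windows in all. A CArG box stood in 2 of the 32 (of Fermt2 and Vcl), beside 1.47% of the 32851 windows in the table, GGAATG in 5 (Actn4, Flna, Flnc, Itgb1 and Vcl), beside 12.6%, and TGANTCA in 2 (Actn4 and Zyx), beside 6.75%. The median GC content was 65.4% in the members' windows and 52.4% in all. These are matches of letters and not measured binding.

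Genes outside the set were taken from lists of the same pathway. Of 6 other integrin subunits 4 were tested and 0 called by edgeR. At an unadjusted p under 0.05, where 5.98% of all tested genes were lower, 1 of the 4 was lower. That gene was Itgb4, the partner of α6 in hemidesmosomes, at 17.5 ± 11.1 CPM with blebbistatin and 45.4 ± 11.7 in controls (SD, n = 8 each). Its log2 fold change was −1.37 (SE 0.38), which missed the threshold by edgeR (adjusted p = 0.101) and passed by DESeq2 (0.0076) and voom (0.0379). The others, Itga7, Itga10 and Itga11, had log2 fold changes of −0.07, 0.30 and 0.13.

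Of 50 further adaptors, kinases and crosslinkers 48 were tested, with a median of −0.06. Of these 1 fell, beside 0.351% of all tested genes, and 47 did not pass. At an unadjusted p under 0.05, 15 were lower and 3 higher, beside 5.98% and 6.21% of all tested genes. Pdlim7, a LIM protein of stress fibres, fell with a log2 fold change of −0.90 (SE 0.21, edgeR adjusted p = 0.0493), from 77.1 ± 24.2 to 41.3 ± 11.1 CPM (SD, n = 8 each), a call that held in 9 of 26 alternatives. Next in order of p were its relative Pdlim5 (log2 fold change −0.52, edgeR adjusted p = 0.0555) and Tns4, a tensin without the actin-binding part (−1.05, adjusted p = 0.0839). Pdlim5 passed by DESeq2 (0.00574) and voom (0.0455), and Tns4 by DESeq2 (0.00912) and not voom (0.0996).

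Of 26 integrin ligands 25 were tested, with a median of −0.34, and 2 fell, beside 0.351% of all tested genes. At an unadjusted p under 0.05, 10 were lower and 1 higher, beside 5.98% and 6.21% of all tested genes. The 2 that fell were the matricellular proteins Ccn2 (log2 fold change −1.77, edgeR adjusted p = 0.00283) and Ccn1 (−0.86, adjusted p = 0.0135), called in 25 and 24 of 26 alternatives. Fn1, for fibronectin, the ligand of α5 and α8, had a log2 fold change of −0.56 (SE 0.13). It missed the threshold by edgeR (adjusted p = 0.0526) and passed by DESeq2 (0.0019) and voom (0.0289). Thbs1, for thrombospondin-1, had a log2 fold change of −0.56 and passed by DESeq2 alone (0.0407, with edgeR at 0.144 and voom at 0.106). Npnt, for nephronectin, named here after its values were seen because it is the ligand of α8, stood at 96.6 ± 29.1 CPM with blebbistatin and 61.9 ± 14.2 in controls (SD, n = 8 each). Its log2 fold change was 0.64 (SE 0.21, edgeR adjusted p = 0.173), and it did not pass by DESeq2 (adjusted p = 0.0686) or voom (adjusted p = 0.317) either.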

How the data were processed

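RNA was measured in 8 blebbistatin-treated and 8 control explants, grouped by the treatment label. The authors deposited 1 table of raw read counts per gene. The submitters' processing notes name HTSeq 0.6.1p1, TopHat2 2.1.0, SAMtools 1.3, Bowtie2 2.2.6.0 and edgeR, and the build mm10 (GRCm38). What each tool did, the strand setting and the annotation release are not given in the sources read. Libraries were prepared with the Ovation and Nextera XT kits after column extraction, per the labels' protocols.

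Counts were scaled by TMM and filtered with filterByExpr, leaving 15675 genes. The test was edgeR's robust quasi-likelihood test (edgeR 4.0.16, R 4.3.3) with group as the only term, and SE is the absolute log2 fold change divided by the square root of F. DESeq2 1.42.0 and limma voom (limma 3.58.1) were alternatives, as were other scaling, no filter, covariates, a replicate block and leaving out libraries. A prior count of 2 entered log2 CPM. The 33 members and all lists were chosen with earlier results of these data known. All members are named, and of other lists the genes past the threshold and up to 4 of smallest p, of which 1 is not reported here. Exon lengths and positions are from GENCODE M21, and a length merges the exons of all annotated transcripts of a gene. Ctgf and Cyr61 appear as Ccn2 and Ccn1. On counts simulated for 15675 genes, the test recovered 50 of 100 genes with a 2-fold change and 90 of 100 with a 4-fold change, and 2.78% of calls were unchanged genes. The changed genes were drawn from those above a mean of 2 CPM. Each gene was simulated independently, and apart from the set changes libraries differed only in their scaled totals. These rates therefore do not cover a factor, such as the mitochondrial share, that differs between the groups. The biological coefficient of variation was 50.1%. The closest 2 libraries of a group, control 7 and 8, had a chi-square of 48.9 for each degree of freedom, above the 1 of sampling noise.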

Additional observations from a re-analysis of the deposited data

Results flagged for a closer look

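The check used log2 CPM, on which gaps differ from those in the CPM printed below, and chance alone flags about 1 in 20. In 4 of the 64 combinations of a member and a group, the highest or lowest library stood apart by more than Dixon's 95% limit. Control 6 was the low library in 3 of them. Itga3, for the laminin receptor chain α3, was at 138 CPM in control 6 and 234 to 361 CPM in the other controls. Lims1, for PINCH1, was at 170 CPM there and 226 to 287 CPM in the others. Tns1, for tensin-1, was at 796 CPM there and 1252 to 1802 CPM in the others. The remaining case was Bcar1, for p130Cas, at 148 CPM in blebbistatin 1 and 54.5 to 77.1 CPM in the other treated libraries.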

How the results depend on the processing

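The 16 members at an unadjusted p under 0.05 kept their direction in all 26 alternatives, and the median log2 fold change of the members stayed between −0.32 and −0.21. The call of Actn1 held in 23 of the 26. Itgb1 and Zyx each passed in 5, Itga5 and Itga8 each in 3, Tns1 in 2 and Nedd9 in 1. The number of members called by edgeR moved more. DESeq2 called 4 lower and 2 higher, with 422 genes in all. The main fit took the replicate numbers of the titles only as names, since the labels give no factor besides the treatment. With each group's mean removed, same-numbered libraries correlated by 0.00394 to 0.279. Treated replicates 1 and 6 matched the control of their own number best, and the others matched another number. Whether the numbers pair the libraries is not settled by these values. The fit with the replicate block called 4 members lower (Itgb1, Zyx, Tns1 and Actn1) of 177 genes. With a macrophage covariate 4 were lower (Itgb1, Zyx, Tns1 and Actn1), of 258 genes. With Y-linked RNA as a covariate 0 were called in either direction, of 22 genes, while 10 members were lower and 3 higher unadjusted. With the mitochondrial share as a covariate 0 were called, of 1 gene, with 9 lower and 2 higher unadjusted. Why these counts moved was not tested. Leaving out each library gave 1 to 3 lower, 0 to 1 higher and 44 to 206 genes in all (the lowest without control 7, the highest without control 6). Without blebbistatin 1 and 8 together, chosen after seeing the data, 2 were lower (Itga5 and Zyx), of 65 genes.

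Fold changes near 0 turned sign in places, none of them past the threshold. Itga9 was −0.056 by voom, −0.051 with the replicate block, −0.11 with Y-linked RNA and −0.035 with the macrophage covariate. Pxn was 0.017 by voom. With Y-linked RNA Itgb3 was 0.14 and Parva −0.038, and with the mitochondrial share Itga1 was 0.29, Itgb3 0.062, Parva −0.064 and Bcar1 −0.19. Without blebbistatin 1 and 8 Tln2 was 0.047, Parva −0.032 and Bcar1 −0.038. Leaving out each library took Itga1 from −0.32 to 0.0055, Itga9 from −0.27 to 0.18, Itgb3 from −0.20 to 0.059, Parva from −0.019 to 0.044, Pxn from −0.12 to 0.096, Bcar1 from −0.022 to 0.26 and Tln2 from −0.34 to −0.077. Of the pairs, Tln1 against Tln2 ran from −0.14 to 0.33 and Itga5 against Itgav from −0.50 to −0.30. Tns1 against Tns3 and Actn1 against Actn4 passed with any library left out (exact permutation test, adjusted p up to 0.00855 and 0.0342). The pair test took no covariates, whereas the call of Actn1 was lost with Y-linked RNA or the mitochondrial share as a term. The lowest counts in a library were 0 for Itga2, 72 for Tln2 and 83 for Lims2.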
